A study of Mus musculus with 60 samples.

Results

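Calf muscle of 21-day-old mice that carry both the Dmdmdx and the Largemyd mutation (Dmdmdx/Largemyd, called the double mutant here) was compared directly with calf muscle of Dmdmdx mice of the same age. The comparison holds the 5 double mutant arrays and the 5 Dmdmdx arrays of 21 days, chosen by their labelled lineage and age, which is 10 of the 60 arrays of the series. The whole series covers 4 lineages (the double mutant, Dmdmdx, Largemyd and C57Bl/6) at 21 days, 3 months and 6 months, with 5 arrays in each of its 12 groups. Each array holds RNA of the calf muscle of 1 untreated animal, with no technical replicates. All animals are labelled male, and Xist, which is expressed from the inactive X chromosome of females, was low in all 20 arrays of 21 days but high in 3 of the 20 of 3 months and 8 of the 20 of 6 months. Because both groups carry the Dmdmdx mutation, the comparison reads what differed when Largemyd was present as well. The labels do not state the strain background of the double mutant, so a difference of background cannot be told apart from one of the Largemyd allele. Levels are log2 values of the deposited normalized table, in which 1 unit is 2-fold, and differences are the double mutant mean minus the Dmdmdx mean.

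Dystrophin ties the actin skeleton of the muscle fibre to dystroglycan in the membrane, and alpha-dystroglycan binds laminin in the basement membrane through sugar chains. Dmdmdx mice lack dystrophin, and their limb muscle goes through necrosis, inflammation and regeneration that begins around weaning. Largemyd mice are a model of the dystroglycanopathies, in which the sugar chains of alpha-dystroglycan are deficient. An animal that carries both mutations therefore has a defect on each side of the same link.

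All 10 arrays carried the transcripts of skeletal muscle at a high level: Acta1, skeletal actin, lay between 13.73 and 13.86 in the double mutant and between 13.78 and 13.86 in Dmdmdx, and Ckm, muscle creatine kinase, between 13.38 and 13.62 in the double mutant and between 13.53 and 13.64 in Dmdmdx. Markers of other tissue differed between arrays within each group. The mean of 41 lymphocyte markers was 6.03, 6.71, 6.10, 6.11 and 6.45 in double mutant replicates 1 to 5, 7.65, 6.29, 7.63, 6.19 and 7.45 in Dmdmdx replicates 1 to 5, and at most 6.08 in C57Bl/6 except for 8.55 in replicate 2. The mean of 20 bone marrow markers was 6.85, 6.74, 6.28, 6.17 and 10.59 in the double mutant and between 6.21 and 7.04 in Dmdmdx. The mean of 26 skin and hair markers was 6.22, 7.66, 8.44, 6.20 and 6.34 in the double mutant and between 5.99 and 6.83 in Dmdmdx. Dmdmdx 1, 3 and 5 thus stood high for lymphocyte markers, double mutant 5 for marrow markers, and double mutants 2 and 3 for skin markers. In RNA of whole muscle, fewer cells of a type and less RNA per cell cannot be told apart. Counts below are therefore given also without every 21-day array that lay more than 1 unit above the median of the 20 arrays of that age on one of these means, which leaves double mutants 1 and 4 against Dmdmdx 2 and 4. They are also given without double mutants 1 and 5, the arrays that limma's array weights put lowest among the 10, at 0.32 and 0.23, against 0.80 to 1.74 for the other arrays. The labels give no difference of feeding, health or sampling for these animals. Double mutant 2 lay with Dmdmdx for H2-Ea and near it for several other genes named below, and whether its genotype or strain background is that of its group was not tested. Leaving it out, 4874 genes passed in place of the 5475 given next, H2-Ea rose by 3.90 in place of 3.13, and 40 of 48 genes of the Dlk1 to Dio3 domain rose in place of 39.

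**Figure D1:**
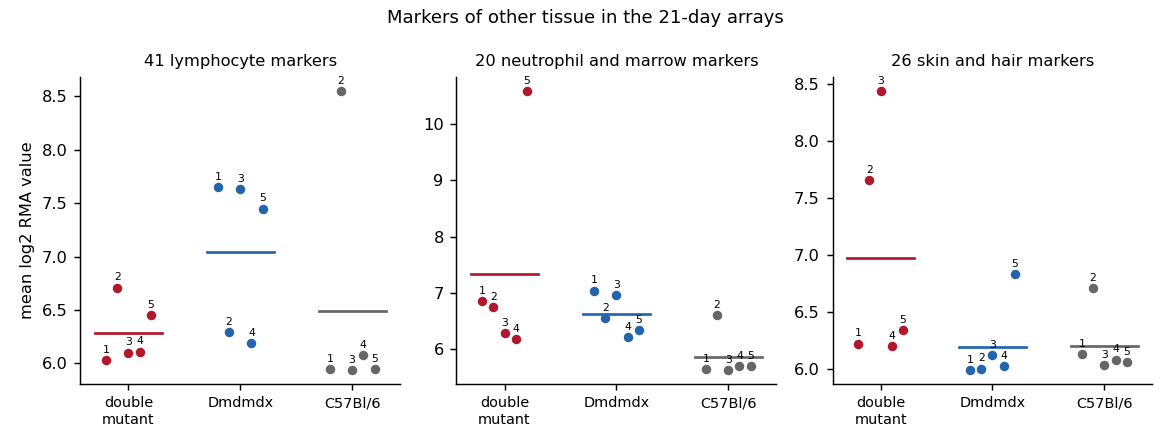
Mean log2 value of lymphocyte, bone marrow and skin markers (vertical axes) in each 21-day array of the double mutant, Dmdmdx and C57Bl/6 (numbered points; lines are group means). Dmdmdx 1, 3 and 5 and C57Bl/6 2 stand high for lymphocyte markers, double mutant 5 reaches 10.59 for marrow markers, and double mutants 2 and 3 reach 7.66 and 8.44 for skin markers.

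Of 19938 genes, 5475 (27.5%) passed an adjusted p of 0.05 in limma (Benjamini-Hochberg over all genes). The double mutant was higher for 2765 of them (13.9%) and lower for 2710 (13.6%), and 271 (1.36%) also differed by at least 2-fold, 105 higher (0.527%) and 166 lower (0.833%). The median difference over all genes was 0.03. The levels of all 5 double mutant arrays lay above those of all 5 Dmdmdx arrays for 1484 genes (7.44%) and below them for 1560 (7.82%). The number that passed was 933 in the 4 arrays without raised tissue markers, 898 of which had also passed in all 10, and 3163 without double mutants 1 and 5. It was 394, of which 368 were shared, when the 3 tissue means entered the fit as covariates.

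The dystrophin gene itself was higher in the double mutant with all 10 arrays. Dmd had levels of 9.20, 9.02, 8.92, 9.07 and 8.94 in the double mutant and 8.41, 8.65, 8.83, 8.33 and 8.31 in Dmdmdx, so the groups did not overlap, and C57Bl/6 averaged 9.72. The difference was 0.52 ± 0.18 (standard error, n = 5 each), with an adjusted p of 0.023 in limma, which was over 0.05 without double mutant 1 or without Dmdmdx 1, 4 or 5. Dmd also did not pass in the 4 arrays without raised tissue markers (0.64, adjusted p 0.177) or without double mutants 1 and 5 (0.495, adjusted p 0.087). With tissue means as covariates it was 0.50 (adjusted p 0.115). Utrn, the dystrophin homologue utrophin, differed by -0.02 ± 0.07 (adjusted p 0.87) and Dag1, which encodes both dystroglycans, by -0.12 ± 0.10 (adjusted p 0.38). In the list of the dystrophin complex and its partners, 3 of 21 measured members rose and 2 fell, shares close to those of all genes (13.9% and 13.6%). Besides Dmd, the risers were Nos1, the neuronal nitric oxide synthase held at the membrane by this complex (0.73 ± 0.21, adjusted p 0.0089), and Ank3, an ankyrin of the membrane skeleton (0.58 ± 0.16, adjusted p 0.0055). Sspn, the membrane protein sarcospan, fell by 0.46 ± 0.16 (adjusted p 0.024). Among enzymes that build the sugar chain of alpha-dystroglycan, 4 of 14 measured members fell (28.6%, against 13.6% of all genes) and 0 rose, with a list median of -0.13. They were B3galnt2, Pomt1, Gmppb and B4gat1, with differences of -0.39, -0.33, -0.32 and -0.30. Without double mutants 1 and 5, 1 member of the dystrophin complex list rose, other than Dmd, Nos1 and Ank3, and 0 fell. In the 4 arrays without raised tissue markers 1 member, Nos1, rose and 0 fell. Under each of these choices 1 glycosylation gene fell, and 0 fell with tissue means as covariates. Nos1, Sspn, B3galnt2 and Gmppb did not pass without double mutant 1, Sspn also not without double mutant 2 or 5 or Dmdmdx 5, B3galnt2 not without Dmdmdx 5, and Gmppb not without double mutant 5 or Dmdmdx 1, 2 or 3.

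The 12 largest rises whose arrays did not overlap held stress-response and growth genes, a macrophage receptor and a sarcomere protein. Inmt, an indolethylamine N-methyltransferase, had levels of 10.77, 9.97, 8.29, 9.10 and 10.50 in the double mutant and 7.75, 6.45, 7.79, 8.21 and 7.44 in Dmdmdx. It rose by 2.20 ± 0.48 (adjusted p 0.00067 in limma), the largest of the 12, with double mutants 1 and 5 on top. Fkbp5, a co-chaperone that restrains the glucocorticoid receptor, Cebpd, a transcription factor of the acute phase, Depp1, a FOXO-induced regulator of autophagy, Mt1, the zinc-binding metallothionein 1, and Slc10a6, a steroid sulfate transporter, rose by between 1.57 and 1.88. Vsig4, the complement receptor of resident macrophages, rose by 1.86 ± 0.32 (adjusted p 3.4e-05). Lvrn, the aminopeptidase laeverin, rose by 1.75 ± 0.29 and Ccdc192, a coiled-coil gene, by 1.59 ± 0.24. Igfbp3, the main carrier of insulin-like growth factors in blood, had levels of 12.32, 10.83, 10.48, 10.18 and 12.37 in the double mutant and between 9.48 and 9.77 in Dmdmdx, a rise of 1.55 ± 0.27. Csrp3, a stretch-sensing protein of the Z-disc, rose by 1.497 ± 0.316 and Apoc3, an apolipoprotein that slows triglyceride breakdown, by 1.48 ± 0.28.

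The 12 largest falls held genes of immune cells and a muscle kinase. Ifi213 and Ifi209, members of the interferon-induced DNA-sensing p200 family, fell by 2.52 ± 0.41 and 2.33 ± 0.58. Retnla, a secreted protein of alternatively activated macrophages, had levels of 6.90, 8.94, 8.62, 8.50 and 5.90 in the double mutant and between 10.01 and 10.50 in Dmdmdx. It fell by 2.52 ± 0.39 (adjusted p 9.2e-06 in limma), and double mutants 1 and 5 were the lowest. Ms4a4c, a membrane protein of myeloid cells, fell by 2.37 ± 0.48, Cyp4f18, a leukotriene-degrading cytochrome P450, by 1.91 ± 0.37, Slamf7, a receptor of lymphocytes and macrophages, by 1.86 ± 0.33, and Cd180, a Toll-like receptor homologue of B cells and macrophages, by 1.81 ± 0.41. H2-Ab1, Cxcl9 and Ccr2, described below, complete the immune genes of this group.

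Mylk4, a myosin light chain kinase gene of striated muscle, had levels of 6.60, 8.92, 8.59, 9.47 and 6.27 in the double mutant and 9.72, 9.86, 9.97, 10.87 and 10.81 in Dmdmdx. It fell by 2.28 ± 0.38 (adjusted p 2.2e-05 in limma), and again double mutants 1 and 5 were the lowest. Cd28, the co-stimulatory receptor of T cells, had levels of 6.09, 6.89, 6.75, 6.73 and 6.12 in the double mutant and 8.49, 8.26, 8.42, 8.25 and 8.67 in Dmdmdx, and averaged 6.77 in Largemyd and 8.36 in C57Bl/6. The spread within each group was small, and the fall of 1.90 ± 0.15 had an adjusted p of 1.4e-13. At 3 months the difference in Cd28 was -0.10 and at 6 months it was 0.15. All 24 of these genes kept their direction in the 4 arrays without raised tissue markers and without double mutants 1 and 5. Csrp3 and Cxcl9 did not pass in the 4 arrays, and Depp1, Cebpd and Cd180 did not pass without double mutants 1 and 5. Several differences were over 1.5 times smaller without these 2 arrays, at 0.47 for Apoc3, 0.80 for Ccdc192, 0.81 for Igfbp3, 0.99 for Slc10a6, 1.02 for Lvrn, -1.25 for Mylk4 and -1.60 for Retnla. With the tissue means as covariates 7 of the 23 genes in that fit passed, and all 23 had the same sign.

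**Figure D2:**
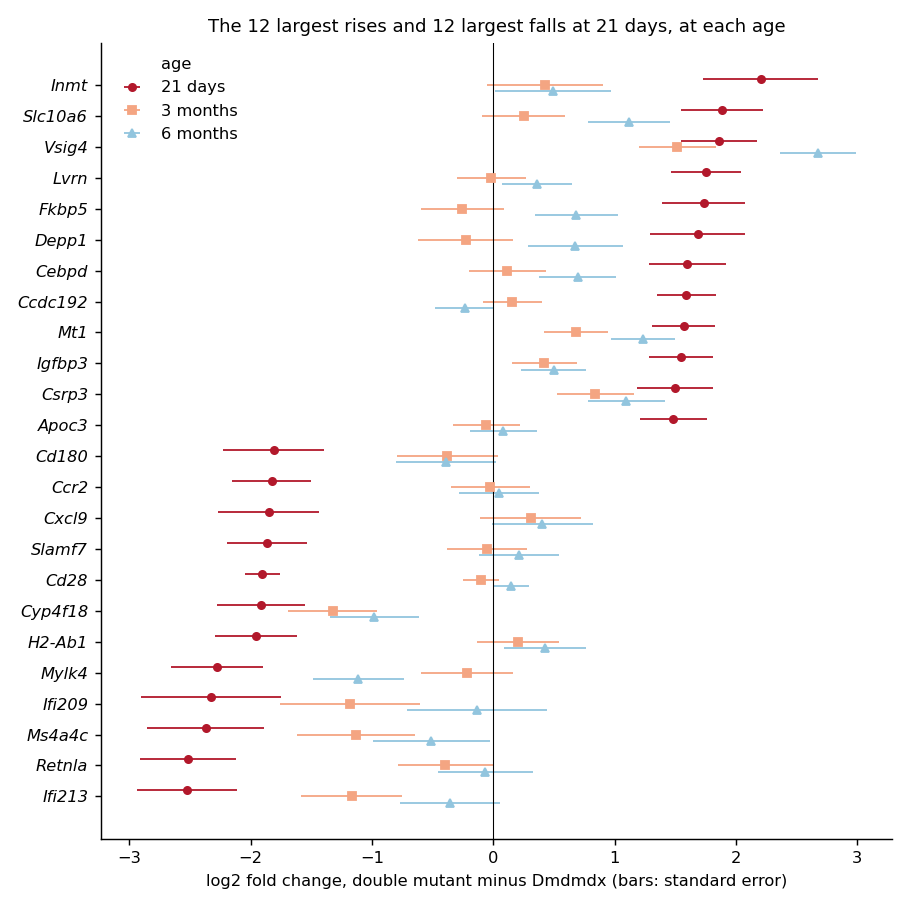
Difference in log2 level, double mutant minus Dmdmdx (horizontal axis; bars are standard errors), for the 12 largest rises and the 12 largest falls of 21 days, with the same genes at 3 months and 6 months. Inmt, at 2.20, and Ifi213, at -2.52, mark the ends at 21 days, and Vsig4 differs by 1.52 at 3 months and 2.68 at 6 months.

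The acute phase and glucocorticoid list was higher in the double mutant, with 21 of 35 measured members up (13.9% of all genes), 0 down and a median of 0.62. Fkbp5 had levels of 10.44, 9.08, 8.56, 8.70 and 10.68 in the double mutant and 7.89, 7.91, 8.03, 7.33 and 7.63 in Dmdmdx. Cebpd had 9.48, 7.33, 7.68, 7.66 and 9.50 in the double mutant and 6.64, 7.25, 6.59, 6.29 and 6.89 in Dmdmdx. The groups did not overlap for either gene, and double mutants 1 and 5 stood more than 1 unit above the other double mutants. Both genes also spread among C57Bl/6 arrays, Fkbp5 between 6.61 and 8.88. Mt1 had levels of 13.12, 12.31, 12.06, 12.22 and 13.30 in the double mutant and between 10.64 and 11.65 in Dmdmdx, a rise of 1.57 ± 0.26 (adjusted p 2.6e-05 in limma). Its neighbour Mt2 differed by 0.59 ± 0.24, which missed the threshold (adjusted p 0.058). Lcn2, the iron-withholding acute phase protein lipocalin 2, had the list's largest rise (2.32 ± 0.84, adjusted p 0.034), but it is also a gene of marrow neutrophils, whose markers were high in double mutant 5; their part in it was not tested. Lcn2 did not pass without double mutant 1 or 5 or without Dmdmdx 4 or 5. Without double mutants 1 and 5, 7 of the 35 passed and the median was 0.35, and Fkbp5 rose by 1.02 (adjusted p 0.038) and Mt1 by 1.16 (adjusted p 0.0049). In the 4 arrays without raised tissue markers, 12 of the 35 were up and 0 down. With tissue means as covariates 1 member was up and 0 down, and the list median was 0.70.

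Genes of muscle atrophy were likewise higher, with 14 of 28 measured members up (13.9% of all genes), 0 down and a median of 0.37. Fbxo32 and Trim63 encode atrogin-1 and MuRF1, the ubiquitin ligases that rise in wasting muscle. Fbxo32 had levels of 12.15, 9.15, 7.70, 9.38 and 11.80 in the double mutant and between 8.37 and 8.57 in Dmdmdx. Trim63 had 12.49, 9.31, 8.97, 9.64 and 12.20 in the double mutant and between 8.96 and 9.26 in Dmdmdx. For both, double mutants 1 and 5 stood more than 2 units above the other double mutant arrays and all Dmdmdx arrays, and double mutant 3 lay below the Dmdmdx range of Fbxo32 and within that of Trim63. The rises of 1.55 ± 0.42 in Fbxo32 (adjusted p 0.0058) and 1.38 ± 0.38 in Trim63 (adjusted p 0.0063) did not pass without double mutant 1, and were 0.26 and 0.17 without double mutants 1 and 5. Eif4ebp1, the repressor of cap-dependent translation, rose by 0.85 ± 0.15, and by 0.38 without these arrays. Without double mutants 1 and 5, 5 members of the list were up, 1 was down and the median was 0.05. In the 4 arrays without raised tissue markers 10 were up and 0 down. With tissue means as covariates 1 was up and 0 down, and the list median was 0.46.

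Growth signalling and the clock moved in both directions. Of 30 measured members of the growth list 9 rose (30%, against 13.9% of all genes) and 6 fell (20%, against 13.6%). Irs2, the insulin receptor substrate that insulin represses in liver, had levels of 9.28, 7.93, 7.94, 8.19 and 9.34 in the double mutant and between 7.27 and 7.54 in Dmdmdx, a rise of 1.11 ± 0.16 (adjusted p 3.2e-06 in limma). Igfbp5, the binding protein that muscle cells secrete, had 8.46, 9.66, 9.86, 9.94 and 9.0 in the double mutant and between 10.28 and 10.84 in Dmdmdx, a fall of 1.20 ± 0.18. Neither gene overlapped between groups. Mstn, the growth inhibitor myostatin, fell by 0.97 ± 0.30 (adjusted p 0.013), and did not pass without double mutant 1 or without double mutant 5. Of 17 measured clock genes 5 rose (29.4%, against 13.9% of all genes) and 3 fell (17.6%, near the 13.6% of all genes). Dbp, an output factor of the clock, had levels of 7.73, 8.93, 8.57, 9.25 and 7.78 in the double mutant and between 9.33 and 10.82 in Dmdmdx, a fall of 1.57 ± 0.30. Nfil3, the repressor that acts opposite to Dbp, rose by 1.10 ± 0.24, Per1, a period gene that glucocorticoids induce, by 0.90 ± 0.33, and Bhlhe41, a clock repressor, fell by 0.98 ± 0.21. The labels do not state the hour of sampling. Per1 did not pass without double mutant 1 or 5 or without Dmdmdx 1, 2 or 3. With double mutants 1 and 5 left out the growth list had 2 members up and 1 down and the clock list 0 up and 1 down, and in the 4 arrays the clock list had 1 up and 2 down.

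**Figure D3:**
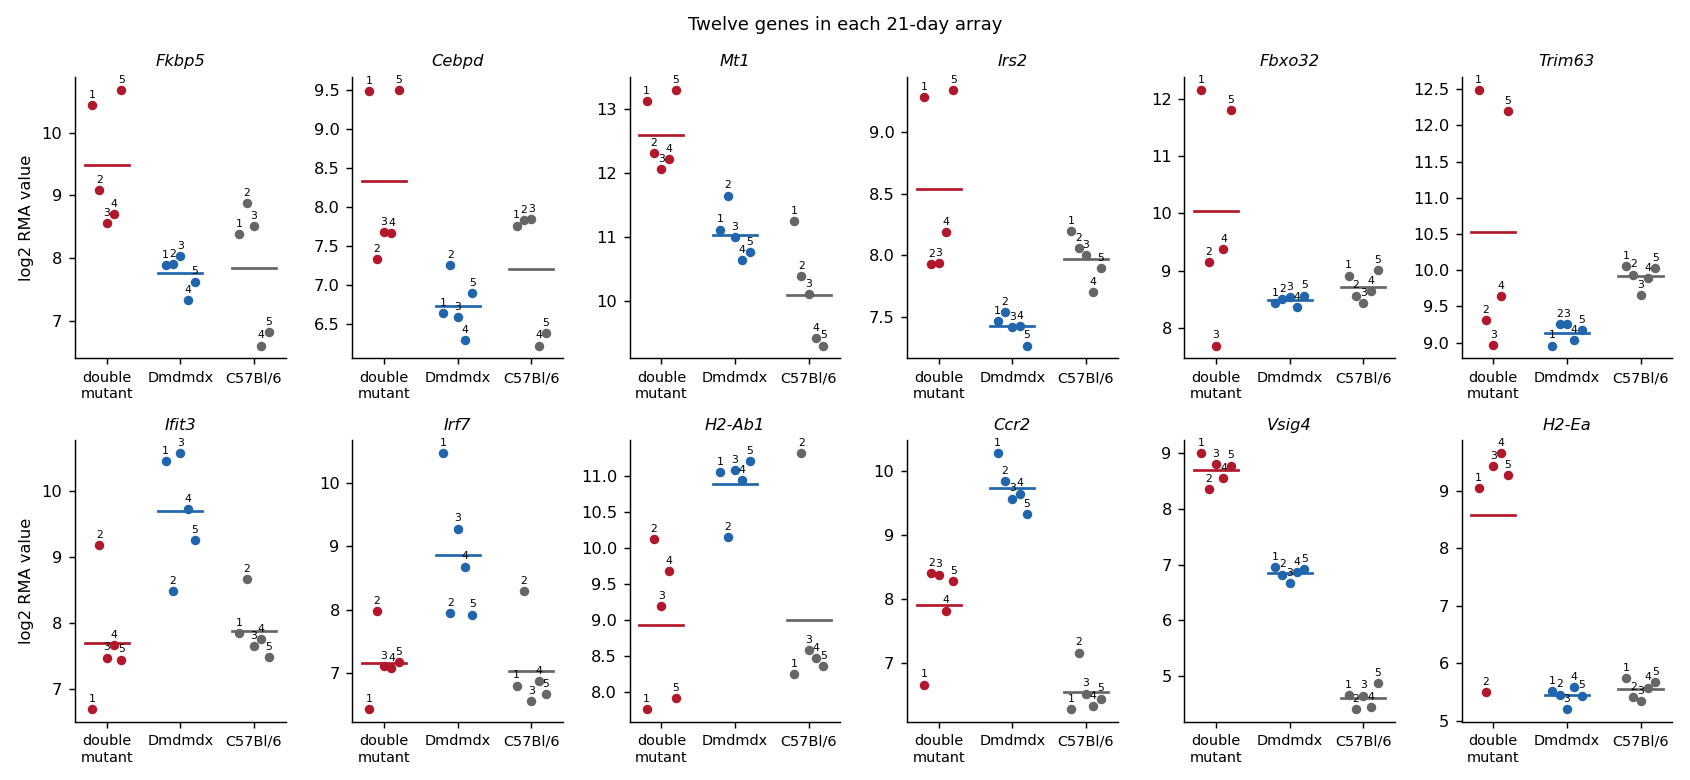
Log2 level (vertical axes) of 12 genes in each 21-day array of the double mutant, Dmdmdx and C57Bl/6 (numbered points; lines are group means). In the upper row double mutants 1 and 5 are highest, at 10.44 and 10.68 for Fkbp5, and in the lower row H2-Ea is high in every double mutant array but replicate 2, at 5.50.

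Interferon-induced genes were lower in the double mutant. These genes are switched on by a STAT and IRF9 complex that binds the interferon-stimulated response element. Of 26 measured members 22 fell (84.6%, against 13.6% of all genes) and 0 rose, with a median of -1.003. Ifit3 and Ifit1, antiviral proteins that bind foreign RNA, are the members whose promoter is shown, since they fell most among those that carry the element. Their 250 bases upstream of the RefSeq start are given 5′ to 3′ on the plus strand of GRCm38.p6 (RefSeq promoters, chr19:34583279-34583528 for Ifit3 and chr19:34640639-34640888 for Ifit1). Capitals mark GAAA, any 2 bases, GAAA, the core of the element, searched on both strands and found here on the minus strand, so that it reads TTTC, any 2 bases, TTTC as printed.
Ifit3: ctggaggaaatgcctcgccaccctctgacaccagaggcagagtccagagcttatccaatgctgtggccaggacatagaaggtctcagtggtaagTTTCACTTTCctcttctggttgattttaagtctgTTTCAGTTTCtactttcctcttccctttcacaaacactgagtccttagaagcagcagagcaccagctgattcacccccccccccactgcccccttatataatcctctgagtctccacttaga
Ifit1: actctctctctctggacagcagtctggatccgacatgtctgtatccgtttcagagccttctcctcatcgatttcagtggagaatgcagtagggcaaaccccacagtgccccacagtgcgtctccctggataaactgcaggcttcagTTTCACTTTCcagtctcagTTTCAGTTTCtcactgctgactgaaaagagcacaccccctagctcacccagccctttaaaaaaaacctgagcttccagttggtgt
Each promoter holds the letters at 2 places, beginning 156 and 122 bases before the start in Ifit3 and 104 and 85 bases before it in Ifit1. The letters occur in 978 of 32851 RefSeq promoters of the same length (2.98%) that is in 936 of 27025 genes (3.46%), and in 8 of the 18 list members that have one in the table (44.4%), which describes the sequences and shows no binding.

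Ifit3 had levels of 6.69, 9.18, 7.47, 7.66 and 7.44 in the double mutant and 10.45, 8.48, 10.57, 9.72 and 9.25 in Dmdmdx, and fell by 2.01 ± 0.35 (adjusted p 4.5e-05 in limma). Ifit1 had 6.05, 8.19, 6.80, 6.46 and 7.36 in the double mutant and 9.47, 7.67, 9.61, 8.71 and 8.14 in Dmdmdx, a fall of 1.75 ± 0.34. Irf7, the transcription factor that amplifies interferon production, had 6.43, 7.98, 7.11, 7.08 and 7.17 in the double mutant and 10.47, 7.94, 9.28, 8.68 and 7.92 in Dmdmdx, a fall of 1.70 ± 0.32. In all 3 genes double mutant 2, the highest of its group, lay above Dmdmdx 2, and in Ifit1 and Irf7 also above Dmdmdx 5. Usp18, the protease that removes ISG15 from proteins, fell by 1.66 ± 0.30. Against C57Bl/6 the list median was 0.04 in the double mutant, with 3 members up and 1 down, and 0.90 in Dmdmdx, with 24 up (11.7% of all genes) and 0 down. These 3 comparisons share arrays, so their values are given side by side only. Dmdmdx 1, 3 and 5 also carried the lymphocyte markers, whose part in the result was not tested. 13 of the 26 fell in the 4 arrays without raised tissue markers, 8 fell without the arrays high for lymphocyte markers, 0 fell with tissue means as covariates, and 18 fell without double mutants 1 and 5, with 0 up each time. The list median was -0.80 in the 4 arrays, -0.80 with the covariates and -0.90 without double mutants 1 and 5.

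Antigen presentation genes were lower as well, with 12 of 15 measured members down (80%, against 13.6% of all genes) and 1 up, and a median of -0.77. H2-Ab1, the beta chain of the class II molecule I-A, had levels of 7.76, 10.12, 9.19, 9.67 and 7.91 in the double mutant and 11.05, 10.15, 11.08, 10.94 and 11.20 in Dmdmdx, and fell by 1.95 ± 0.34 (adjusted p 4.0e-05 in limma). The groups came within 0.03 of each other at double mutant 2 and Dmdmdx 2. H2-Eb1, the beta chain of the class II molecule I-E, fell by 1.62 ± 0.28, and H2-DMa, which loads peptides on class II molecules, by 1.52 ± 0.24. H2-Ea, the alpha chain of I-E, rose: it had levels of 9.04, 5.50, 9.43, 9.65 and 9.27 in the double mutant and between 5.21 and 5.59 in Dmdmdx, with a mean of 5.55 in C57Bl/6 and 11.18 in Largemyd. Double mutant 2 alone lay with Dmdmdx, and C57BL/6 mice are known to carry a deletion that silences this gene. Its difference was 3.13 ± 0.89 (adjusted p 0.0075), which did not pass in the 4 arrays (adjusted p 0.10) or without double mutants 1 and 5 (adjusted p 0.060). In the list, 7 of 15 fell in the 4 arrays and 9 fell without double mutants 1 and 5, with 0 up in both. With tissue means as covariates 0 fell and 1 rose, and the list median was -0.555. The list mean was 9.47 in C57Bl/6 2, which stood high for lymphocyte markers, and 7.99 to 8.14 in the other C57Bl/6 arrays. Dmdmdx 1, 3 and 5 stood high for these markers too, whose part in the result was not tested.

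Most macrophage genes were lower, and 5 of the 40 measured members had a difference above 0. Of the 40, 16 fell (40%, against 13.6% of all genes) and 3 rose (7.5%, against 13.9%), with a median of -0.56. Ccr2, the receptor that draws monocytes from blood, had levels of 6.66, 8.40, 8.38, 7.82 and 8.28 in the double mutant and 10.28, 9.84, 9.57, 9.65 and 9.33 in Dmdmdx, and fell by 1.83 ± 0.33 (adjusted p 6.9e-05 in limma). The groups lay almost 1 unit apart, and C57Bl/6 averaged 6.54. Clec7a, the beta-glucan receptor dectin-1, fell by 1.42 ± 0.30 and Adgre1, the F4/80 antigen, by 1.27 ± 0.25. Vsig4 had levels of 9.0, 8.36, 8.80, 8.56 and 8.78 in the double mutant and 6.95, 6.82, 6.67, 6.86 and 6.92 in Dmdmdx, against a C57Bl/6 mean of 4.61. It was thus highest in the double mutant with a gap of over 1 unit, and Cd163, the haemoglobin scavenger receptor of resident macrophages, rose by 0.55 ± 0.19 (adjusted p 0.029), which did not pass without double mutant 1 or 5 or Dmdmdx 4 and was 0.27 without double mutants 1 and 5. Against C57Bl/6, 35 of the 40 members were up in the double mutant (15.4% of all genes), with a median of 1.60, and 36 were up in Dmdmdx (11.7% of all genes, of which 25.2% passed in either direction), with a median of 2.23. In the 4 arrays without raised tissue markers 5 members fell and 1 rose, the same counts as without double mutants 1 and 5. With tissue means as covariates 1 fell and 1 rose, and the list median was -0.56.

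Of 34 measured chemokine and cytokine genes 9 fell (26.5%, against 13.6% of all genes) and 0 rose (median -0.23). Cxcl9, an attractant of T cells that interferon gamma induces, fell by 1.85 ± 0.41, Ccl5, another T cell attractant, by 1.65 ± 0.49, Ccl8, a monocyte attractant, by 1.33 ± 0.38 and Ccl3, a macrophage inflammatory protein, by 0.98 ± 0.36. In the 4 arrays without raised tissue markers Cxcl9, Ccl5 and Ccl8 did not pass (adjusted p 0.14, 0.33 and 0.17), and Ccl3 did not pass without double mutant 1 or 5 or Dmdmdx 1, 2 or 3. Of 20 measured complement genes 6 fell (30%, against 13.6% of all genes) and 0 rose (median -0.17). They were led by Cfb, factor B of the alternative pathway (-1.26 ± 0.22), and C3ar1, the receptor of the C3a fragment (-1.09 ± 0.26), which did not pass without double mutants 1 and 5. In the 4 arrays 2 chemokine and 2 complement genes fell. Of 24 measured T and NK cell genes 4 fell (16.7%, near the 13.6% of all genes) and 0 rose. Those that fell were Cd28 and 3 genes of killer cells: Klrd1, the CD94 receptor (-1.32 ± 0.28), Gzma, granzyme A (-0.98 ± 0.15), and Ncr1, the NKp46 receptor (-0.84 ± 0.17). In the arrays without raised lymphocyte markers, and likewise without double mutants 1 and 5, 4 fell, and in the 4 arrays 3 fell. Of 17 measured B cell genes 2 fell, which is 11.8%, under the 13.6% of all genes, and 0 fell under any of these 3 choices of arrays. The 2 were Bank1, a signalling scaffold of B cells (-1.67 ± 0.58), and Cd22, an inhibitory receptor (-1.08 ± 0.41). Neither gene passed without double mutant 1 or 4 or Dmdmdx 1, 3 or 5, and Cd22 not without double mutant 3 or 5.

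Genes of connective tissue were lower at 21 days with all 10 arrays. Of 18 measured basement membrane genes 10 fell (55.6%, against 13.6% of all genes) and 0 rose, with a median of -0.28. Of 38 measured fibrillar and other matrix genes 11 fell (28.9%) and 2 rose (5.26%, against 13.9% of all genes), with a median of -0.12. Col15a1, a collagen at the outer face of the basement membrane, had levels of 7.80, 8.69, 9.16, 9.35 and 7.70 in the double mutant and 9.58, 9.47, 9.45, 9.83 and 9.82 in Dmdmdx, and fell by 1.09 ± 0.19 (adjusted p 4.3e-05 in limma). Lum, the collagen-binding proteoglycan lumican, had 9.49, 10.21, 10.37, 10.35 and 8.96 in the double mutant and between 10.57 and 11.12 in Dmdmdx, a fall of 1.00 ± 0.19. Neither gene overlapped between the groups, and double mutants 1 and 5 were lowest in both. Lama4, a laminin chain of vessels and nerves, fell by 0.67 ± 0.12 and Nid2, the laminin-binding nidogen 2, by 0.54 ± 0.13. Mfap4, a microfibril protein, fell by 0.81 ± 0.26, Col14a1, a collagen at fibril surfaces, by 0.77 ± 0.17 and Col1a1, the main chain of fibrillar collagen I, by 0.72 ± 0.23. Without double mutants 1 and 5, and likewise in the 4 arrays without raised tissue markers, 2 basement membrane genes fell, and 1 and 2 matrix genes fell under these choices. The basement membrane and matrix medians were -0.15 and -0.005 without double mutants 1 and 5, and -0.255 and -0.22 in the 4 arrays. With tissue means as covariates 1 basement membrane gene and 0 matrix genes fell, with list medians of -0.29 and -0.25. Mfap4 did not pass without double mutant 1 or without double mutant 5 (-0.49) and was -0.12 without both, and Col1a1 did not pass without double mutant 1. Col15a1 and Lum passed without double mutants 1 and 5, at -0.56 and -0.57.

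Of 13 measured tendon genes 3 fell (23.1%, against 13.6% of all genes) and 1 rose (7.69%, against 13.9%). The falls were those of Kera, the cornea and tendon proteoglycan keratocan (-1.55 ± 0.34), Tnmd, the tendon cell marker tenomodulin (-1.26 ± 0.34), and Chad, the matrix protein chondroadherin (-0.995 ± 0.346). Prg4, the lubricant of tendon and joint surfaces, rose by 0.61 ± 0.24, and passed with 1 array left out only where that was double mutant 3 or Dmdmdx 2. Tnmd and Chad did not pass without double mutant 1, and Chad not without Dmdmdx 1 or 4, and 0 tendon genes passed without double mutants 1 and 5, with Kera at -0.50, Tnmd at -0.22 and Chad at -0.64. Of 21 measured markers of fibro-adipogenic progenitors, the connective tissue precursors of muscle, 10 fell (47.6%) and 2 rose (9.52%), with a median of -0.22. Thy1, a surface marker of these cells, fell by 1.11 ± 0.19. Of 28 measured endothelial genes 11 fell (39.3%) and 1 rose (3.57%), with a median of -0.22. Aplnr, the apelin receptor of growing vessels, had levels of 7.34, 7.89, 8.09, 8.38 and 7.56 in the double mutant and 9.32, 9.69, 9.49, 9.87 and 9.66 in Dmdmdx. The groups lay almost 1 unit apart, and the fall of 1.76 ± 0.24 had an adjusted p of 9.3e-07 in limma. Its ligand Apln fell by 0.66 ± 0.14, Vwf, von Willebrand factor, by 0.63 ± 0.11 and Kdr, the receptor of vascular endothelial growth factor, by 0.62 ± 0.16. In the arrays without double mutants 1 and 5, 9 endothelial and 4 progenitor genes fell, and in the 4 arrays 4 endothelial and 3 progenitor genes fell.

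The connective tissue genes differed in direction between ages. At 3 months 13 of the 18 basement membrane genes were higher in the double mutant than in Dmdmdx (1.69% of all genes were), 0 were lower and the median was 0.50. At 6 months 0 passed in either direction. The matrix list had 13 of 38 members higher at 3 months and 12 higher at 6 months (2.53% of all genes), 0 lower at either age (0.326% and 2.05% of all genes), and medians of 0.33 and 0.37. The difference between ages, tested as its own contrast over all genes, was positive for 15 basement membrane genes at 3 months minus 21 days (7.86% of all genes) and for 7 at 6 months minus 21 days (8.91% of all genes), with 0 negative. For the matrix list it was positive for 17 and negative for 1 at 3 months, and positive for 20 and negative for 0 at 6 months. Col14a1 differed by -0.77 at 21 days, 0.88 at 3 months (adjusted p 0.0016) and 0.74 at 6 months (adjusted p 0.0057). Col15a1 differed by -1.09 at 21 days, 0.77 at 3 months (adjusted p 0.015) and 0.16 at 6 months. Dmdmdx 1, 3 and 5 of 3 months stood high for marrow markers (8.06, 9.76 and 11.23), against 6.64 to 6.81 in the double mutants of 3 months, and their part in these counts was not tested. Without arrays of any age that lay over 1 unit on a tissue mean, 1 basement membrane gene was higher at 3 months (median 0.40) and 3 at 6 months, 3 matrix genes were higher at 3 months and 18 at 6 months, and the change at 3 months was positive for 6 and 10 genes of these lists. Without arrays of high Xist, 5 basement membrane and 6 matrix genes were higher at 3 months.

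Over all genes 402 (2.02%) passed at 3 months and 913 (4.58%) at 6 months. The number at 3 months was 52 without arrays that lay over 1 unit on a tissue mean and 150 without arrays of high Xist. The change in the difference passed for 2233 genes (11.2%) at 3 months minus 21 days and for 3078 (15.4%) at 6 months minus 21 days. Interferon-induced genes, 22 of 26 lower at 21 days, had 1 lower at 3 months and 0 in either direction at 6 months. Of the 24 largest rises and falls, 2 passed at 3 months and 4 at 6 months, among them Vsig4 at both ages, with differences of 1.52 and 2.68, the first of which had an adjusted p of 0.12 without arrays over 1 unit on a tissue mean. For 15 of the 24 the difference itself changed between 21 days and 3 months, and for 11 between 21 days and 6 months. The 21-day difference enters both changes, and the 24 genes were chosen for its size, which favours a change towards 0. Animals of different ages were different animals. The mean over all probe sets was 6.78 to 6.81 in the 21-day arrays, while it lay between 7.19 and 7.27 at 3 months and between 7.32 and 7.37 at 6 months. Levels are therefore not compared across ages here.

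**Figure D4:**
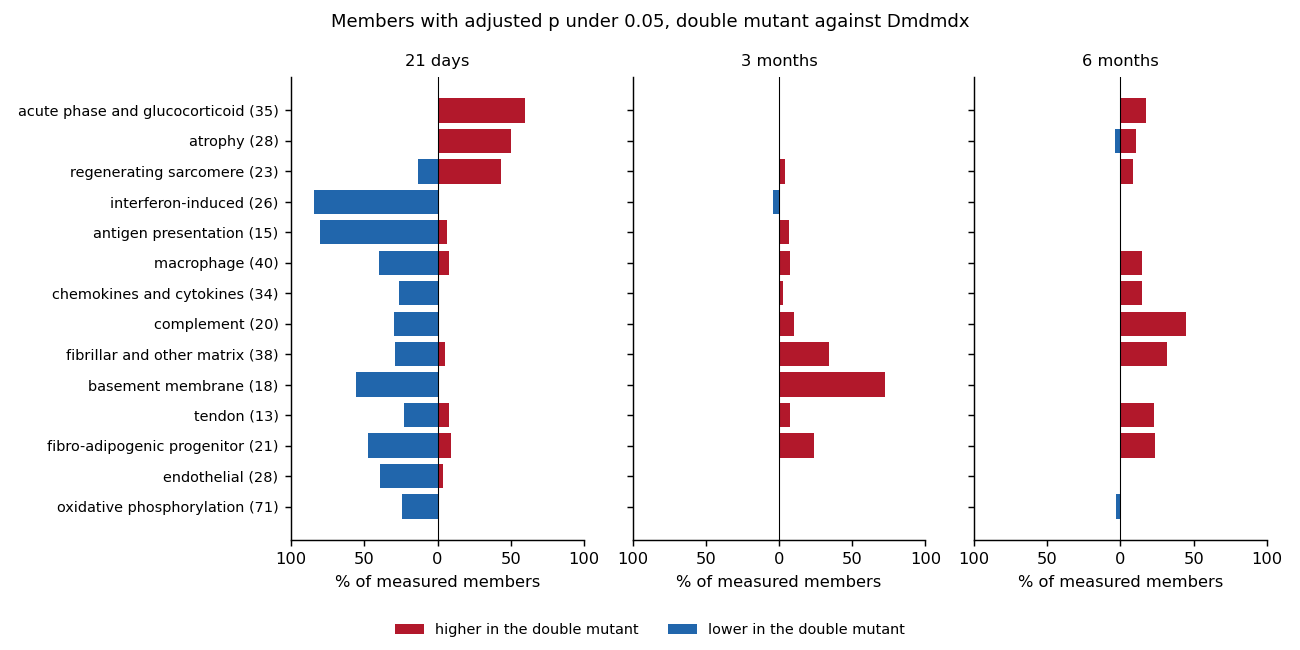
Share of the measured members of 14 gene lists that were higher (right of 0) or lower (left of 0) in the double mutant than in Dmdmdx at an adjusted p under 0.05 in limma, in percent, at each age (number measured in parentheses). Interferon-induced genes, 22 of 26 lower at 21 days, are near 0 at later ages, and basement membrane genes change side between 21 days and 3 months.

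Regeneration was described by its early sarcomere genes and by the cell cycle. Of 23 measured members of the regenerating sarcomere list 10 rose (43.5%, against 13.9% of all genes) and 3 fell (13%, near the 13.6% of all genes), with a median of 0.19. Xirp1, an actin-binding protein of damaged and remodelling fibres, rose by 1.40 ± 0.26 (adjusted p 0.00011 in limma), Ankrd2, a stretch-induced ankyrin repeat protein, by 1.00 ± 0.25 and Tnfrsf12a, the receptor of the cytokine TWEAK, by 0.96 ± 0.26. Sln, sarcolipin, which uncouples the sarcoplasmic calcium pump, belongs to the slow fibre list and not to this one. It had levels of 9.13, 7.81, 7.60, 8.13 and 8.17 in the double mutant and 7.10, 7.28, 7.11, 7.15 and 6.75 in Dmdmdx. All double mutant arrays were higher, the rise was 1.09 ± 0.19, and Sln also passed at 3 months (0.89) and at 6 months (0.79). Without double mutants 1 and 5, 6 of the 23 regenerating sarcomere genes rose and 0 fell, and 0 passed in the 4 arrays without raised tissue markers. Of 39 measured cell cycle genes 0 passed in either direction, with a median of -0.27. The largest of these differences were those of Bub1, a mitotic checkpoint kinase (-0.76 ± 0.46, adjusted p 0.21), and Kif11, a spindle motor (-0.62 ± 0.48, adjusted p 0.33). Against C57Bl/6, 29 of the 39 were up in the double mutant (15.4% of all genes) and 38 in Dmdmdx (11.7% of all genes). The cell cycle list mean was 8.20 in double mutant 5, which stood high for marrow markers, and 6.93 to 7.64 in the other double mutants. The list median was -0.63 in the 4 arrays and -0.54 with tissue means as covariates, with 0 passing in either fit. Of 28 measured satellite cell and myoblast genes 2 rose (7.14%, against 13.9% of all genes) and 5 fell (17.9%, against 13.6%). Without double mutants 1 and 5, 0 of these 28 rose and 2 fell.

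Genes of oxidative phosphorylation and of glycolysis were among those lower with all 10 arrays. Of 71 measured oxidative phosphorylation genes 17 fell (23.9%, against 13.6% of all genes) and 0 rose (median -0.15). Against C57Bl/6, 65 were down in the double mutant (18.5% of all genes) and 57 in Dmdmdx (13.5% of all genes). Ndufc1 and Ndufa9, subunits of complex I, fell by 0.89 ± 0.15 and 0.60 ± 0.11, and Cox7a1, the muscle form of a subunit of complex IV, by 0.88 ± 0.20. Of 31 measured glycolysis and glycogen genes 10 fell (32.3%) and 2 rose (6.45%). Phkg1 and Phka1, the muscle subunits of the kinase that starts glycogen breakdown, fell by 0.97 ± 0.22 and 0.86 ± 0.22, and Ppp1r3c, which directs a phosphatase to glycogen, rose by 1.14 ± 0.28. Of 32 measured fatty acid oxidation genes 5 fell (15.6%, near the 13.6% of all genes) and 2 rose, with Ucp3, the muscle uncoupling protein, at -1.02 ± 0.25 and Ppara, a nuclear receptor that drives fat oxidation, at 0.68 ± 0.19. Of 22 measured fast fibre genes 5 fell (22.7%) and 1 rose (4.55%). Among the falls were Mylk4, Sypl2, a triad protein (-0.86 ± 0.26), and Pvalb, the calcium buffer parvalbumin (-0.52 ± 0.15). Of 18 measured slow fibre genes 2 rose and 2 fell, 11.1% each way, under the 13.9% and 13.6% of all genes. Among them Sln, described above, rose by 1.09 ± 0.19, and Mb, myoglobin, fell by 0.93 ± 0.18. With double mutants 1 and 5 left out 2 oxidative phosphorylation genes fell and 1 rose, 1 glycolysis gene fell and 1 rose, 1 fatty acid oxidation gene and 1 fast fibre gene fell, and 1 slow fibre gene rose. In the 4 arrays without raised tissue markers 2, 1, 0, 1 and 2 members of these lists fell. In the same fit 2 fatty acid oxidation genes and 1 slow fibre gene rose, and 0 members of the other lists did. Sypl2 did not pass without double mutant 5 (-0.40), and Cox7a1, Phkg1 and Pvalb were -0.57, -0.60 and -0.18 without it.

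Of 22 measured genes of Schwann cells and myelin 8 rose (36.4%, against 13.9% of all genes) and 1 fell (4.55%, against 13.6%). The fall was that of Pmp2, a fatty acid carrier of peripheral myelin, with levels of 5.50, 5.73, 5.61, 5.69 and 4.92 in the double mutant and 7.17, 6.42, 6.43, 7.76 and 7.86 in Dmdmdx, and a mean of 8.41 in C57Bl/6. The groups did not overlap, and the fall of 1.64 ± 0.22 had an adjusted p of 4.7e-07 in limma. Fa2h, which makes the hydroxylated lipids of myelin, rose by 0.70 ± 0.17 and Gjc3, a connexin of myelinating glia, by 0.60 ± 0.16. Of the list 2 rose and 1 fell both without double mutants 1 and 5 and in the 4 arrays without raised tissue markers. With tissue means as covariates 0 rose. Over all genes tested 1688 rose without double mutants 1 and 5, 402 in the 4 arrays and 139 with the covariates.

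The imprinted genes of the Dlk1 to Dio3 domain on chromosome 12 were higher in the double mutant. The domain holds the growth regulator Dlk1 and the retrotransposon-derived Rtl1, expressed from the paternal copy, and the non-coding Meg3, Rian and a large cluster of miRNA genes, expressed from the maternal copy. Imprinting means that only 1 parental copy is active, and in muscle the domain is known for its activity in growing tissue and in muscle stem cells. The domain was singled out after its values were seen, so its counts are a description. Its limits are Dlk1 and Dio3, and 48 of its 103 RefSeq entries were measured, 40 of them miRNA genes. Array probe sets of miRNA genes read the precursor or host RNA and not the mature miRNA. The mature sequences of the 6 miRNA genes that rose by at least 1 unit are given 5′ to 3′ as far as the RefSeq table holds them (GRCm38.p6, plus strand, from chr12:109594528-109594549 for miR-434-5p to chr12:109734946-109734967 for miR-485-3p), with the seed, bases 2 to 8 that pair with targets, in capitals.
mmu-miR-434-5p: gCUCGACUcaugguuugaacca
mmu-miR-434-3p: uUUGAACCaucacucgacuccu
mmu-miR-136-5p: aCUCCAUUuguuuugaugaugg
mmu-miR-136-3p: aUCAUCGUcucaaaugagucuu
mmu-miR-380-5p: aUGGUUGAccauagaacaugcg
mmu-miR-380-3p: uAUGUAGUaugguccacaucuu
mmu-miR-382-5p: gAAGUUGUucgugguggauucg
mmu-miR-382-3p: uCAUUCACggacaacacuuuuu
mmu-miR-134-5p: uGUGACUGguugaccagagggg
mmu-miR-134-3p: cUGUGGGCcaccuagucacc
mmu-miR-485-3p: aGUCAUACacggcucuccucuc
These 11 sequences share no seed. Over the 76 mature miRNAs of the measured genes there were 74 seeds, and the shared ones were AUGUAAC in miR-379-3p and miR-411-3p and UGGAUAU in miR-376c-5p and miR-376b-5p. The printed genes thus lie in 1 domain and their products differ in the seed.

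Of the 48 measured genes of the domain 39 rose (81.2%) and 0 fell, with a median of 0.56 and a range of 0.11 to 1.72. For 20 of the 48 all double mutant arrays were above all Dmdmdx arrays, as for 7.44% of all genes. Many genes of the domain were dim. When the dimmest 25% of genes were left out, 21 of the 48 remained, of which 17 rose and 0 fell (median 0.52). Of the 40 miRNA genes of the domain 33 rose (82.5%), against 44 of the 260 miRNA genes measured elsewhere (16.9%). The mean over the domain was 6.56, 6.11, 6.97, 6.61 and 6.30 in the double mutant and 5.89, 6.07, 5.98, 5.80 and 5.72 in Dmdmdx, with 6.22 to 6.48 in Largemyd and 5.48 to 5.95 in C57Bl/6. Double mutant 2 was lowest and only 0.04 above the highest Dmdmdx array, and the arrays that were extreme for Fkbp5, double mutants 1 and 5, lay inside the double mutant range. Dlk1 had levels of 11.14, 10.13, 11.13, 11.15 and 10.77 in the double mutant and between 9.57 and 10.02 in Dmdmdx, a rise of 1.09 ± 0.18 (adjusted p 1.8e-05 in limma). Meg3 had 11.74, 10.73, 11.70, 11.36 and 10.88 in the double mutant and 10.61, 10.64, 10.72, 10.43 and 10.23 in Dmdmdx, a rise of 0.75 ± 0.20. Neither overlapped, and double mutant 2 was closest to Dmdmdx in both. Rtl1 rose by 0.74 ± 0.12 and Rian by 0.58 ± 0.20, and Dio3, the deiodinase that inactivates thyroid hormone, differed by 0.35 ± 0.16 (adjusted p 0.092).

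Mir134 had levels of 9.83, 9.05, 9.96, 9.57 and 9.23 in the double mutant and 8.40, 8.59, 8.44, 8.18 and 7.97 in Dmdmdx, a rise of 1.21 ± 0.14 (adjusted p 3.2e-08 in limma) without overlap. Mir136 had 7.72, 4.83, 6.23, 6.75 and 6.23 in the double mutant and 4.92, 5.08, 5.05, 4.22 and 3.92 in Dmdmdx, and its rise of 1.72 ± 0.27 was the largest of the domain although double mutant 2 lay within the Dmdmdx range. Mir485 had 8.38, 7.48, 8.89, 8.34 and 7.79 in the double mutant and between 6.71 and 7.28 in Dmdmdx, a rise of 1.15 ± 0.17. Mir380, Mir382 and Mir434 rose by 1.28 ± 0.19, 1.23 ± 0.19 and 1.05 ± 0.15. Dlk1 and Rtl1, read from the paternal copy, thus rose together with Meg3, Rian and the miRNA genes of the maternal copy, although the arrays do not tell the alleles apart. At 3 months 4 of the 48 were higher, with a median of 0.17 and with Dlk1 at 1.06 and Meg3 at 1.24, and at 6 months 0 passed and the median was 0.00. The difference had become smaller for 14 genes at 3 months (3.34% of all genes) and for 29 at 6 months (6.53% of all genes). Without double mutants 1 and 5, 42 of the 48 rose (median 0.61), in the 4 arrays without raised tissue markers 26 rose (median 0.59), and with tissue means as covariates 3 rose (median 0.45), with 0 falling each time. The number that rose was between 34 and 42 when 1 array was left out.

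**Figure D5:**
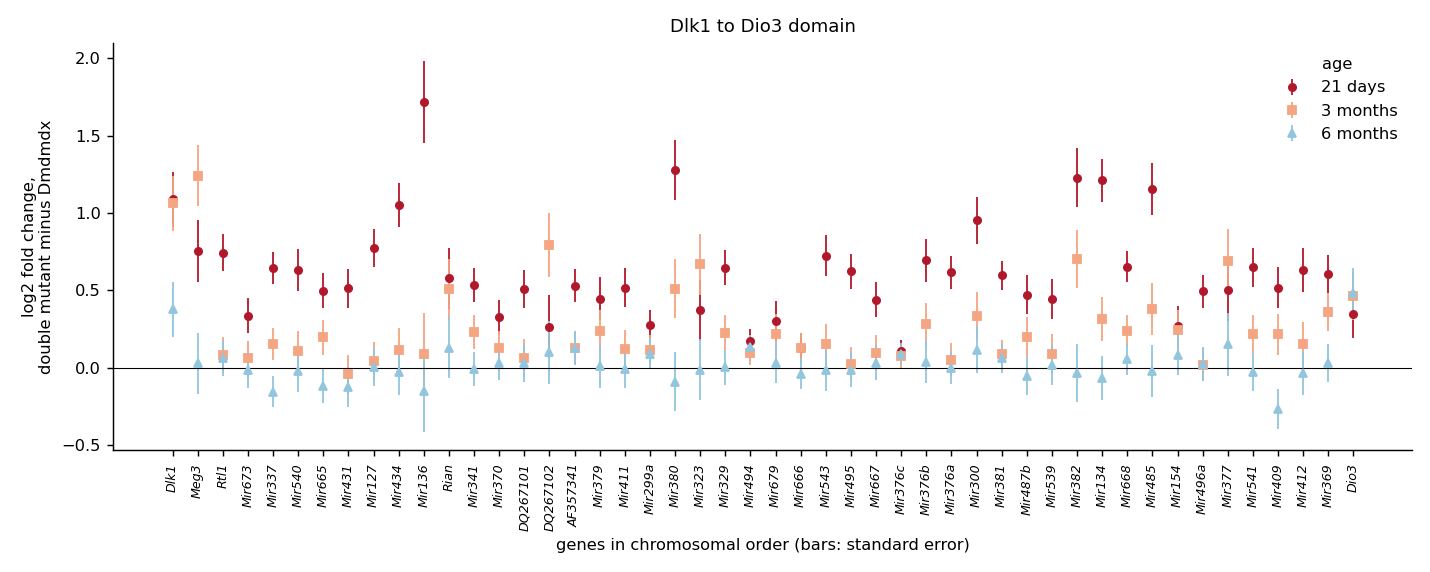
Difference in log2 level, double mutant minus Dmdmdx (vertical axis; bars are standard errors), for the 48 measured genes of the Dlk1 to Dio3 domain in chromosomal order, at 21 days, 3 months and 6 months. All 48 differences are above 0 at 21 days, up to 1.72 for Mir136, while the medians at 3 and 6 months are 0.17 and 0.00.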

How the data were processed

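The authors' deposited table holds log2 RMA values of Affymetrix arrays, normalized in Expression Console, per the submitters' processing notes, whose version those notes leave out. Of 35556 probe sets, 21789 carry 1 gene symbol. One probe set per gene, that of the highest mean over 60 arrays, gave 19938 genes. All 12 groups were fitted together, with no covariate, in limma 3.58.1 (R 4.3.3; lmFit, eBayes), with Benjamini-Hochberg adjustment over all genes and a threshold of 0.05; standard errors are those of the fit. The precision is limited by 5 arrays a group. Scripts were tested on simulated data. The genes compared and the 45 gene lists (1134 genes, 1054 measured) were chosen with earlier results of these data known. Named are the 12 largest rises and 12 largest falls without overlap between groups (predicted genes, receptor segments and small RNAs left out), Dmd, Utrn, Dag1, and up to 4 members of each list; other genes were chosen after their values were seen. Alternatives covered normalization, samples fitted, probe set choice and single arrays; the fits without raised tissue markers at 1 unit and without double mutants 1 and 5 were added after seeing the data. Nothing in the labels says that animals shared a litter or a day. 1 further gene is not reported here.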

Additional observations from a re-analysis of the deposited data

Results flagged for a closer look

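Among the 59 genes examined in this way, the difference between the double mutant and Dmdmdx changed with age for 35 at 3 months and 32 at 6 months by the limma contrast of that change (adjusted p under 0.05 over all genes). Over all genes it changed for 11.2% and 15.4%. The 59 are the 24 largest rises and falls of 21 days and others named with their 21-day differences known. That choice favours a change towards 0, so the counts are a description. All such changes share the 21-day arrays. Values below are the difference at the later age minus that at 21 days, in log2 units. Of the genes that rose at 21 days, the change was negative at both later ages for Lvrn (-1.77 at 3 months and -1.39 at 6 months), Ccdc192 (-1.43 and -1.83), Igfbp3 (-1.13 and -1.05) and Apoc3 (-1.54 and -1.40), and for the atrophy and growth genes Fbxo32 (-1.88 and -2.15), Eif4ebp1 (-0.70 and -0.74) and Irs2 (-1.28 and -0.96). It was negative at 3 months for Slc10a6 (-1.63), Fkbp5 (-1.99), Depp1 (-1.91), Cebpd (-1.48), Lcn2 (-4.90), Nfil3 (-1.34) and Xirp1 (-1.13), and at 6 months for Trim63 (-1.58). For Lcn2, a gene of marrow neutrophils, the marrow mean was 10.59 in double mutant 5 of 21 days and 9.76 and 11.23 in Dmdmdx 3 and 5 of 3 months. Its change was -2.97 (adjusted p 0.10) without arrays over 1 unit on a tissue mean. In the imprinted domain of chromosome 12 it was negative for Mir134 (-0.90 and -1.28), Mir136 (-1.63 and -1.87) and Mir485 (-0.78 and -1.18), and at 6 months for Dlk1 (-0.71).

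Of the immune genes that fell at 21 days, the change was positive at both later ages for Ccr2 (1.80 and 1.87), Cxcl9 (2.16 and 2.26), Slamf7 (1.81 and 2.08), Cd28 (1.80 and 2.05), H2-Ab1 (2.16 and 2.38), H2-Eb1 (1.88 and 1.99), Retnla (2.12 and 2.45), Ifit3 (1.74 and 1.49) and Cfb (1.48 and 1.76), and at 6 months for Ifi213 (2.17), Ifit1 (1.46) and Usp18 (1.31). Of the connective tissue and vessel genes it was positive for Col15a1 (1.86 and 1.25), Lum (1.61 and 1.64), Thy1 (1.38 and 1.64) and Aplnr (2.23 and 1.04). It was also positive for Igfbp5 (1.30 and 1.03), Dbp (2.32 and 1.30), Pmp2 (1.92 and 1.57) and Nnat (3.10 and 3.09), and at 3 months for Mylk4 (2.06).

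In 9 of the 118 groups of 5 arrays 1 array stood apart from the others by Dixon's test, which flags about 1 group in 20 by chance. In the double mutant these were replicate 2 for H2-Ea (5.50) and Nnat (8.67) and replicate 5 for Pmp2 (4.92). In Dmdmdx they were replicate 2 for Igfbp3 (9.48), H2-Ab1 (10.15) and Mt2 (13.18), replicate 4 for Nfil3 (7.47) and Cd163 (7.60), and replicate 5 for Eif4ebp1 (9.89).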

How the results depend on the processing

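The number of genes that passed at 21 days (5475) was between 3582 (without double mutant 1) and 5466 when 1 array was left out. The number higher (2765) was then between 1726 (without double mutant 1) and 2790, with 1826 without Dmdmdx 1, and the number lower (2710) between 1856 and 2676. The change at 3 months (2233) was between 1581 and 2507, and that at 6 months (3078) between 2062 and 3486. With the tissue means as covariates 394 passed, 139 higher and 255 lower. In the following choices, made after seeing the data, the numbers at 21 days were 933 (402 higher, 531 lower) without arrays over 1 unit on any tissue mean, 977 (346 higher, 631 lower) without those over it on the lymphocyte mean, 1757 (733 higher, 1024 lower) without such arrays at every age, and 3163 (1688 higher, 1475 lower) without double mutants 1 and 5. The same choices gave 656, 752, 402 and 1229 changes at 3 months and, except for the last, 1114, 804 and 1500 at 6 months. Fewer arrays entered each of these fits. Array weights gave 1382 genes at 3 months and 3019 at 6 months, and 4603 and 5669 changes from 21 days; the cause was not tested. At 3 months 52 passed without raised arrays at every age and 150 without arrays of high Xist, which go against the label male. With array medians subtracted, the median of all genes was -0.014 in place of 0.028, and 1929 were higher and 3176 lower. Direction turned for Krt77, a skin keratin (1.36, and -0.074 without arrays over 1 unit on the skin mean), and for Sesn1, a p53-induced stress protein (0.77, and -0.062 without double mutants 1 and 5). No paired analysis was possible because the labels give the groups no shared replicate numbers. The 5 arrays a group and the background level of dim probe sets limit what could be detected.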

Other observations

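Stress-protection genes moved both ways, with 4 of 25 measured members up and 4 down, 16% each way, near the 13.9% and 13.6% of all genes. Gpx3, the secreted glutathione peroxidase, rose by 1.34 ± 0.23 and Hspb1, the small heat shock protein HSP27, by 1.31 ± 0.21. Of 15 measured p53 targets 6 rose (40%) and 3 fell (20%). Btg2, an antiproliferative gene, rose by 0.94 ± 0.19, and Sesn1 had levels of 12 and 11.95 in double mutants 1 and 5, of 9.43 to 10.29 in the other double mutant arrays, and of 9.86 to 10.11 in Dmdmdx. Of 24 measured genes of lipid and sterol synthesis 9 fell (37.5%) and 2 rose (8.33%, under the 13.9% of all genes). Idi1, an isomerase of the sterol pathway, fell by 0.91 ± 0.20, Me1, the malic enzyme that supplies reducing power for fat synthesis, by 0.74 ± 0.15 and Sqle, squalene epoxidase, by 0.61 ± 0.16. Of 26 measured genes of the neuromuscular junction and of denervation 5 fell (19.2%, near the 13.6% of all genes) and 0 rose (median 0.02). The largest falls were those of Hdac9, a class II histone deacetylase (-0.68 ± 0.15), and Ache, acetylcholinesterase (-0.50 ± 0.14). Without double mutants 1 and 5, 3 p53 targets, 2 lipid genes and 0 junction genes rose, and 0, 3 and 2 fell.

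Skin and hair markers rose for 20 of 26 measured members (76.9%, against 13.9% of all genes), and 0 passed in the 4 arrays without raised tissue markers. Double mutant 2 stood nearer to Dmdmdx than the other double mutant arrays did for several separate genes. Nnat, an imprinted membrane protein, had levels of 6.50, 8.67, 6.62, 6.77 and 6.10 in the double mutant and 9.71, 8.37, 9.18, 9.59 and 9.89 in Dmdmdx. H2-Ea was 5.50 in double mutant 2 and at least 9.04 in the other double mutant arrays, Ifit3 was 9.18 there and at most 7.66 in the others, and the mean of the Dlk1 to Dio3 domain was 6.11 there and 6.30 to 6.97 in the others. For Dmd, Cd28 and Vsig4, double mutant 2 lay with its group. Whether its genotype or strain background differs from that of its group was not tested. These genes were chosen after their values were seen.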
